A study of Mus musculus with 16 samples.

Results

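The genes of glucose uptake, glycolysis, glycogen and the pentose phosphate pathway were followed in brain RNA of wild-type (WT) mice and of mice homozygous for the *Mrps5* V338Y mutation. The set holds 34 named genes, matched by symbol to the 39179 genes of the count table. Its rule is a list of pathway members that applies no measured value, but the list was written with earlier results of these data known. All 34 were found, and all 34 passed the filter on low counts (at least 10 counts in 2 of the 4 mice of a group) in every comparison. The product of *Mrps5* belongs to the small mitoribosomal subunit, and the V338Y change lowers the accuracy of mitochondrial translation. Female mice are described in the methods, WT and homozygous knock-in, at 3 and at 19 months of age, with 4 separate animals in each of the 4 groups. The introduction of the paper gives the knock-in mice as C57/BL6. The mutation was inherited and sits in every cell, so no promoter or Cre restricts it. RNA came from deep-frozen cortex by the methods and from brain by the sample labels.

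Brain tissue runs on blood glucose. GLUT1 (*Slc2a1*) carries glucose across the endothelium of brain capillaries and into astrocytes, and GLUT3 (*Slc2a3*) carries it into neurons. Hexokinase traps glucose as glucose 6-phosphate, which enters glycolysis, the glycogen store kept mainly by astrocytes, or the pentose phosphate pathway that supplies NADPH. Several steps are served by sister enzymes that differ between cell types: *Aldoa* and *Eno2* are typical of neurons, *Aldoc* and *Eno1* of glia. Lactate moves between cells through the monocarboxylate transporters MCT1 (*Slc16a1*, vascular and glial) and MCT2 (*Slc16a7*, neuronal).

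With age, 11 of the 13 enzymes of the glycolytic chain fell in WT and 8 in V338Y mice, and the carriers *Slc2a1* and *Slc16a1*, which bring glucose and lactate across the vessel wall, rose in both. In WT mice, 25 of the 34 genes differed between 19 and 3 months, 10 higher and 15 lower, beside a background of 62.8% of the 16101 genes tested (31.4% higher and 31.5% lower). In V338Y mice 20 differed, 9 higher and 11 lower, beside 48.8% of 16770 genes (23.1% higher and 25.7% lower). Between genotypes, none of the 34 passed the test at 3 months (0.0616% of 16241 genes) and 3 differed at 19 months, 2 higher and 1 lower in V338Y mice (3.12% of 16420 genes, 1.19% higher and 1.92% lower). For none did the difference in age change between genotypes pass (0.0535% of 16831 genes). Each edgeR adjusted p below comes from the quasi-likelihood test, adjusted by Benjamini-Hochberg across every gene that passed the filter, and genes were called at an adjusted p under 0.05.

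Total counts ranged from 6181448 to 19601664 per mouse, and the counts of the 34 genes from 11 to 32120. Depth differed between genotypes. Group medians were 1.12e+07 and 1.10e+07 in WT and 1.58e+07 and 1.60e+07 in V338Y mice of 3 and 19 months. *Mrps5* itself was counted at 34.5 to 41.8 CPM (normalised counts scaled to a common library total) at 3 months and at 28.1 to 32.1 CPM at 19 months, and a codon change cannot be seen in such counts. Although all mice are described as female, the 3-month libraries held the Y-linked *Ddx3y* at 96.8 to 128 CPM and almost no *Xist*, and the 19-month libraries held no *Ddx3y* and *Xist* at 705 to 1183 CPM. Sex and age therefore cannot be told apart in any comparison of ages. A sum of 8 cerebellum markers was at 431 to 1050 CPM in 7 of the 8 3-month mice, at 88.3 CPM in V338Y mouse 14, and at 87.9 to 104 CPM at 19 months. Neuron, astrocyte and cortex marker sums were at least 5958, 3008 and 159 CPM in every library. Choroid plexus markers were high in old V338Y mice 17 and 18 (sums of 2232 and 2272 CPM, against at most 979.5 CPM in the other mice). The sum of 5 skeletal muscle markers was at 19.5, 11.2, 80.0 and 11.7 CPM in the old V338Y mice, above the 5.96 to 6.93 CPM of the old WT mice and the 4.61 to 9.28 CPM at 3 months. The sum of 4 pituitary markers was at 1.2 to 2.58 CPM at 3 months, at 75.7 to 116 CPM in old WT mice and at 24.9, 25.7, 21.3 and 72.3 CPM in old V338Y mice.

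Per kilobase of the main transcript, levels spanned 3 orders of magnitude. *Aldoa* stood highest, with a mean of 870 CPM per kb over the 16 mice (698 to 1072) and above every other member in each mouse. *Pkm* (395 to 571) and *Aldoc* (358 to 450) followed with overlapping ranges, and in old WT mice their means were 407 and 409.9 CPM per kb. The next neighbours were *Gapdh* (253 to 316), *Tpi1* (209 to 357), *Eno2* (177 to 289) and *Ldhb* (172 to 233). Each of these ranges overlapped the next, while every *Gapdh* value lay above every *Ldhb* value. Within a mouse, *Tpi1* always stood above *Eno2* and *Ldhb*, and *Pkm* stood above *Aldoc* except in old WT mice 12 and 15. The order of *Gapdh* and *Tpi1* and that of *Eno2* and *Ldhb* differed between mice. The order also depends on the length used, since per kb of all exons *Aldoc* averaged 349, *Pkm* 233 and *Gapdh* 95.7. At the other end were *Slc16a7* with 2.28, *Hk2* with 1.39 and *Hk3* with 0.763 CPM per kb. *Hk1*, the hexokinase bound to brain mitochondria, made up 98.3% ± 0.329 (SD, n = 4) of the summed hexokinase level in 3-month WT mice and 96.4% ± 0.364 at 19 months. Among phosphofructokinases, the enzymes that commit sugar to glycolysis, the muscle form *Pfkm* held 51.8% ± 0.789 of the summed level, the platelet form *Pfkp* 30.9% ± 1.01 and the liver form *Pfkl* 17.3% ± 0.78 in the same mice. At 19 months the WT share of *Pfkm* was 48.6% ± 0.326 and that of *Pfkp* 34.5% ± 0.557. Such shares depend on the length used as well. Per kb of all exons, *Pfkm* averaged 108 CPM over the 16 mice, *Pfkp* 24.5 and *Pfkl* 23.9.

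**Figure D1:**
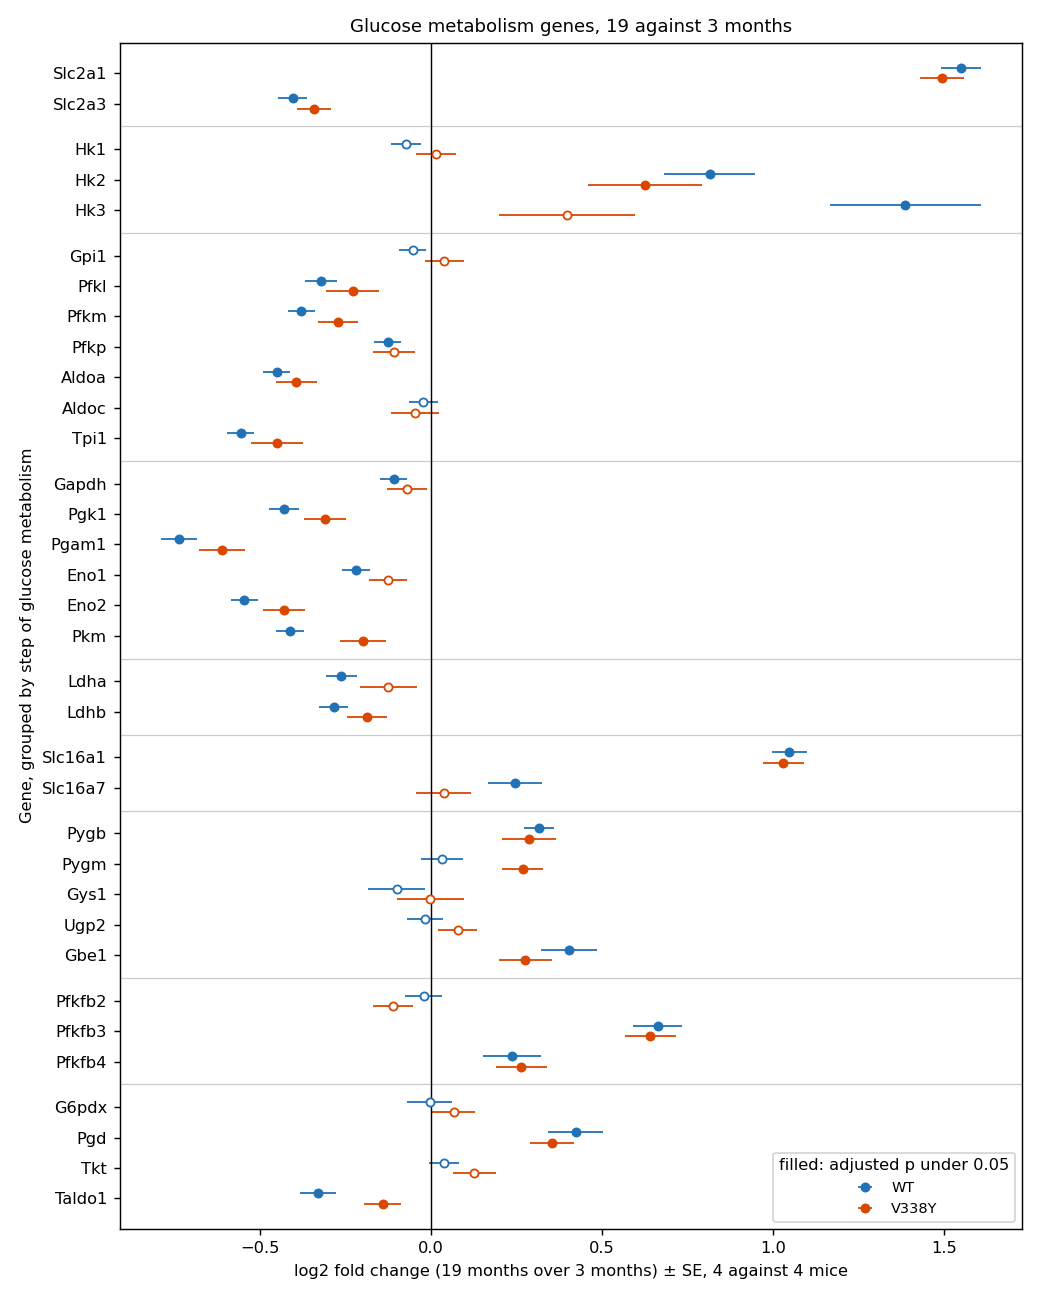
Log2 fold changes of the 34 genes between 19 and 3 months (19 months over 3 months; x axis) with their standard errors, 4 against 4 mice, for WT (blue) and V338Y (orange), in blocks by step of the pathway. Filled points had an edgeR adjusted p under 0.05. The enzymes of upper and lower glycolysis lie left of 0 except *Gpi1* in V338Y mice, *Slc2a1* and *Slc16a1* lie right of 1 in both genotypes, and no difference between the blue and orange points passed the interaction test.

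*Slc2a1* had the largest age change of the set in both genotypes. This gene (chromosome 4, 119108711 to 119137983, plus strand; positions are of GRCm38) measured 80.4, 84.4, 71.3 and 66.999 CPM in WT mice 9 to 12 of 3 months and 211, 232, 215 and 224 CPM in WT mice 12 to 15 of 19 months; all values below follow the order of the mouse numbers. V338Y mice 13 to 16 of 3 months held 64.999, 72.3, 69.5 and 70.7 CPM and V338Y mice 17 to 20 of 19 months 185, 193, 192 and 216 CPM. In both genotypes every 19-month mouse lay above every 3-month mouse. The log2 fold change was 1.55 ± 0.059 (SE, as after every log2 fold change below; edgeR adjusted p = 1.42e-16) in WT and 1.495 ± 0.064 (edgeR adjusted p = 3.25e-09) in V338Y mice. *Slc16a1*, the lactate and ketone body carrier MCT1, went from 55.6, 57.7, 56.4 and 60.3 to 121, 122, 111 and 119 CPM in WT and from 60.4, 60.6, 56.8 and 54.6 to 125, 112, 124 and 117 CPM in V338Y mice. Its groups did not overlap either, and its log2 fold changes were 1.05 ± 0.051 and 1.03 ± 0.059 (edgeR adjusted p = 2.01e-17 and 3.59e-08).

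Of the neuronal partners of these carriers, 1 fell and 1 rose slightly. *Slc2a3* fell in WT mice from 181, 176, 177 and 172 to 133, 130.5, 135 and 130.04 CPM. Its V338Y values were 176, 171, 163 and 165 CPM at 3 months and 135, 129.7, 137 and 134 CPM at 19 months. The groups were apart in both genotypes, with log2 fold changes of -0.40 (edgeR adjusted p = 1.36e-09) and -0.34 (edgeR adjusted p = 1.16e-04). *Slc16a7*, the high-affinity lactate carrier MCT2, was at 20.96, 25.7, 23.8 and 22.2 CPM in young and 27.2, 26.99, 25.9 and 30.8 CPM in old WT mice, a small rise (0.25 ± 0.08, edgeR adjusted p = 0.00823) that missed the threshold with library size as the sole scaling (0.0911) and after trends on GC content and length were removed (0.27). V338Y mice measured 20.9, 25.7, 24.5 and 25.5 CPM and then 24.1, 23.99, 25.03 and 26.6 CPM, overlapping groups (edgeR adjusted p = 0.725).

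Markers of vessels rose in the same libraries. A sum of 7 endothelial markers was at 157 to 178 CPM in the 3-month mice and at 751 to 886 CPM in the 19-month mice, which is 5.01-fold higher in WT and 4.86-fold higher in V338Y mice by the group means, against 2.93-fold and 2.82-fold for *Slc2a1* in the fit; all 7 markers passed the test in both genotypes. Mural cell markers (sum of 5) were 3.97-fold and 3.90-fold higher, astrocyte markers (sum of 8) 2.27-fold and 1.89-fold, and the neuron marker sum (of 10) was 0.958-fold and 0.994-fold. The rise was not particular to vessels and astrocytes. Higher sums were also seen for oligodendrocyte (1.48-fold and 1.60-fold), microglia (1.97-fold and 1.85-fold), meningeal fibroblast (2.57-fold and 2.20-fold) and blood markers (3.55-fold and 2.31-fold). The cerebellum sum was lower (0.149-fold and 0.133-fold). By the test, 6 of the 10 neuron markers were lower and 2 higher in WT mice (median log2 fold change -0.27), and 5 lower and 2 higher in V338Y mice (median -0.18). Over all genes tested, 31.4% were called higher and 31.5% lower in WT mice, and 23.1% and 25.7% in V338Y mice. Their part in the changes of the transporters and enzymes was not tested, and in bulk tissue fewer cells of a type and less RNA per cell cannot be told apart.

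Promoter letters of members that moved together were read from RefSeq (GRCm38.p6). They are shown because *Slc2a1* and *Slc16a1* rose with age while *Pgam1* and *Pgk1* fell, and the 4 were picked because they carry the core letters of the hypoxia response element, the binding motif of HIF factors that control many glycolytic genes. The windows run from 250 to 31 bases before the start of the RefSeq transcript, 5′ to 3′, all on the plus strand, and capitals mark ACGTG or its complement CACGT; in *Slc16a1* both overlap in one CACGTG. The RefSeq start of *Slc2a1* lies downstream of the gene start given above, which falls inside the capitals.
*Slc2a1*, chr4:119108495-119108714: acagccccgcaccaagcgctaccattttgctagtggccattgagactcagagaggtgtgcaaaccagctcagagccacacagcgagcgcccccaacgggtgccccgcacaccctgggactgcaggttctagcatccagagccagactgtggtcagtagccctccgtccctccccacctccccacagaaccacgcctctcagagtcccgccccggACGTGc
*Slc16a1*, chr3:104638414-104638633: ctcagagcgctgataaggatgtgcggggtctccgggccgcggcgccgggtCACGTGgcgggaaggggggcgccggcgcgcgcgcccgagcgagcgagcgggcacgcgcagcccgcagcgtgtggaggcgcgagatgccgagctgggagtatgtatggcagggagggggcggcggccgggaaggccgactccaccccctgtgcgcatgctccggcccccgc
*Pgam1*, chr19:41911621-41911840: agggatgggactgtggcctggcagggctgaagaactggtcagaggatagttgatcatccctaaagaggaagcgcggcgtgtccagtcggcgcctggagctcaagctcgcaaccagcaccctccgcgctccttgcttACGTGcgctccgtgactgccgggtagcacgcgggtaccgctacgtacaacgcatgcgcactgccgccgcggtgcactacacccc
*Pgk1*, chrX:106186850-106187069: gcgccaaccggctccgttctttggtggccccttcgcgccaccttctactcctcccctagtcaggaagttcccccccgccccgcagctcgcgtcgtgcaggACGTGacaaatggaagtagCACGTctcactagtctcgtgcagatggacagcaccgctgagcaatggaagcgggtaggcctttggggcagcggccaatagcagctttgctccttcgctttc
Of the 34 genes, 32 had an entry and *Slc2a3* and *Slc16a7* had none. ACGTG on either strand was found in any such window of 15 of the 32 (46.9%), against 16.2% of the 27025 genes with windows of the same length. A gene can have several windows. Counted by window, the letters were in 18 of the 48 windows of the members (37.5%), against 14.4% of all windows. By direction in WT mice, it was found for 6 of 9 members that rose with age, 6 of 14 that fell and 3 of the 9 others. The windows of the members held a median of 10 CpG dinucleotides, against 5 over all 32851 windows, and a match of letters is a description of the sequence and not a binding site.

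The hexokinases split. *Hk1* was at 321 ± 19.3 CPM (SD, n = 4) in young and 303 ± 9.55 CPM in old WT mice and did not pass the test in either genotype (log2 fold changes -0.072 and 0.015; edgeR adjusted p = 0.156 and 0.849). *Hk2*, the insulin-responsive form of muscle and fat, rose in WT from 5.44 ± 0.848 to 9.55 ± 0.569 CPM (0.82 ± 0.13, edgeR adjusted p = 3.66e-06) and in V338Y mice from 6.22 ± 1.45 to 9.51 ± 1.19 CPM (0.63 ± 0.17, edgeR adjusted p = 0.00776). *Hk3*, a hexokinase of myeloid cells, measured 1.36, 1.52, 1.24 and 1.81 CPM in young and 4.27, 4.22, 2.82 and 4.23 CPM in old WT mice. The groups were apart, with WT mouse 14 below the other old mice, and the log2 fold change was 1.39 ± 0.22 (edgeR adjusted p = 2.40e-06). In V338Y mice *Hk3* was at 1.92, 2.12, 1.27 and 2.32 CPM and at 2.63, 2.399, 2.299 and 2.88 CPM. These groups overlapped by mouse 16, and the change of 0.40 ± 0.20 did not pass the test (edgeR adjusted p = 0.116). A sum of 9 microglia markers was 1.97-fold higher in WT and 1.85-fold higher in V338Y mice.

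Most enzymes of the chain from glucose 6-phosphate to pyruvate fell with age. Of its 13 members, 13 had a log2 fold change below 0 in WT mice and 11 passed the test; in V338Y mice 12 were below 0 and 8 passed, and none passed as higher in either. Over all genes tested, 8129 of 16101 were below 0 in WT mice and 31.5% were called lower. In V338Y mice 8848 of 16770 were below 0 and 25.7% were called lower. Together the 13 held 7627 ± 131 CPM (SD, n = 4) in 3-month and 6100.2 ± 43.0 CPM in 19-month WT mice, and 7500.1 ± 525 CPM and 6430 ± 120.04 CPM in V338Y mice. Their median log2 fold change was -0.38 in WT and -0.23 in V338Y mice, beside -0.005 and -0.029 over all genes tested.

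In the upper part of the chain, *Tpi1*, triosephosphate isomerase, fell most in WT mice. It was at 514, 521, 491 and 518 CPM at 3 months and at 357, 346, 339 and 336 CPM at 19 months. V338Y mice held 573, 557, 443 and 466 CPM at 3 months and 379, 367, 380.3 and 373 CPM at 19 months. All young values were above all old ones in each genotype, although young V338Y mice 15 and 16 lay lower than the other young mice. The log2 fold changes were -0.56 ± 0.039 and -0.45 ± 0.075 (edgeR adjusted p = 1.74e-13 and 3.39e-04). *Aldoa*, the main aldolase, went from 1544, 1520.5, 1490.3 and 1455 to 1093, 1055, 1112 and 1103 CPM in WT mice and from 1606, 1619, 1374 and 1434 to 1150.1, 1161, 1151 and 1155 CPM in V338Y mice. The old mice lay close together in each genotype and below every young mouse. Its log2 fold changes were -0.45 and -0.39 (edgeR adjusted p = 1.94e-11 and 1.65e-04).

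*Aldoc*, the aldolase of astrocytes and Purkinje cells, passed in neither genotype. It was at 1079, 1247, 1189 and 1157 CPM in young and 1159, 1097, 1123 and 1189 CPM in old WT mice, and at 1254, 998, 1103 and 1188 CPM in young and 1078, 1088, 1144 and 1116 CPM in old V338Y mice. The groups overlapped and the log2 fold changes were -0.022 ± 0.043 and -0.046 ± 0.07 (edgeR adjusted p = 0.678 and 0.618). Among phosphofructokinases, *Pfkm* fell by 23.1% in WT and by 17.2% in V338Y mice (edgeR adjusted p = 9.13e-10 and 0.00208), *Pfkl* by 20.01% and 14.7% (edgeR adjusted p = 6.70e-07 and 0.0258), and *Pfkp* by 8.42% in WT mice alone by the test (edgeR adjusted p = 0.00531; V338Y -0.11, 0.164). *Gpi1*, glucose 6-phosphate isomerase, passed in neither genotype (-0.054 and 0.039; edgeR adjusted p = 0.244 and 0.601). The V338Y call of *Pfkl* was lost when V338Y mouse 13, 14, 17, 18 or 19 was left out (edgeR adjusted p from 0.0612 to 0.103), and without mice 17 and 18 together those of *Pfkl* (0.163) and *Pfkm* (0.0521) were lost.

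In the lower part of the chain, all 6 members passed as lower in WT mice (background 31.5%). *Pgam1*, phosphoglycerate mutase (chromosome 19, 41911923 to 41918660, plus strand), had the largest fall of the 34 genes. WT mice held 90.3, 87.1, 84.98 and 91.5 CPM at 3 months and 51.03, 55.7, 52.4 and 50.9 CPM at 19 months, and V338Y mice 96.7, 90.2, 78.3 and 82.2 and 56.3, 53.7, 59.6 and 58.9 CPM. No old mouse came near the young ones, and the log2 fold changes were -0.74 ± 0.053 and -0.61 ± 0.068 (edgeR adjusted p = 3.38e-13 and 1.31e-05). *Eno2*, neuron-specific enolase (chromosome 6, 124760053 to 124769673, minus strand), was at 773, 734, 737 and 716 CPM in young and 493, 519, 502 and 498 CPM in old WT mice. Young V338Y mice had 791, 809, 708 and 706 CPM and old ones 538, 548, 593 and 573 CPM. All old mice were below all young ones, with log2 fold changes of -0.55 ± 0.039 and -0.43 ± 0.062 (edgeR adjusted p = 2.52e-13 and 1.14e-04).

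*Eno1*, the enolase found in most cells, changed less. It went from 398, 367, 365 and 373 to 307, 327, 316 and 329.6 CPM in WT mice (-0.22 ± 0.041, edgeR adjusted p = 2.83e-05). In V338Y mice it was at 386, 369.6, 325 and 356 CPM and then at 331, 328, 331 and 334 CPM, overlapping through the low young mouse 15, a difference that missed the threshold (-0.13 ± 0.055, edgeR adjusted p = 0.0739). *Pkm*, pyruvate kinase of muscle and brain (chromosome 9, 59656368 to 59679375, plus strand), measured 1389.6, 1331, 1316 and 1266 CPM in young and 998, 981, 1016 and 961 CPM in old WT mice. The V338Y mice measured 1369.6, 1334, 1104 and 1204 CPM and 1065, 1083, 1139.8 and 1102 CPM. The WT groups were apart and the V338Y groups overlapped by the low young mouse 15, with log2 fold changes of -0.41 ± 0.04 and -0.20 ± 0.066 (edgeR adjusted p = 2.33e-10 and 0.0248).

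*Pgk1*, phosphoglycerate kinase, fell by 25.7% and 19.3% (edgeR adjusted p = 1.07e-09 and 0.00108); it is X-linked, in libraries whose sex differs between the ages. *Gapdh*, often used as a reference gene, fell by 7.26% in WT mice (edgeR adjusted p = 0.019) and was -0.07 on the log2 scale in V338Y mice (edgeR adjusted p = 0.341). The WT call of *Gapdh* was lost without WT mouse 9 or 11 of 3 months or mouse 12 of 19 months (edgeR adjusted p from 0.0534 to 0.0625) or when 10 counts were required in every sample (0.0532), and the V338Y call of *Pkm* was lost without mouse 13, 14, 16, 17, 18 or 20 (0.0539 to 0.12).

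Both lactate dehydrogenase genes fell in WT mice, and *Ldhb* fell in V338Y mice. In WT mice *Ldhb*, the heart-type subunit favoured by neurons, went from 302, 277, 287 and 289 to 245, 224, 243 and 228 CPM. *Ldha*, the muscle-type subunit, went from 219, 216, 197 and 220.2 to 186, 169, 178 and 171 CPM. The groups were apart for both, with log2 fold changes of -0.28 ± 0.043 and -0.26 ± 0.045 (edgeR adjusted p = 1.04e-06 and 8.81e-06). In V338Y mice *Ldhb* measured 304, 294, 253 and 280.3 and 244, 258, 255 and 242 CPM, a smaller fall in which young mouse 15 overlapped the old ones (-0.19 ± 0.058, edgeR adjusted p = 0.0171) that missed the threshold without mouse 13, 14, 16, 17 or 20 (0.0508 to 0.0924). *Ldha* there measured 214, 226, 164 and 185 and 176, 176, 192 and 181 CPM, groups that overlapped (-0.13 ± 0.083, edgeR adjusted p = 0.234).

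**Figure D2:**
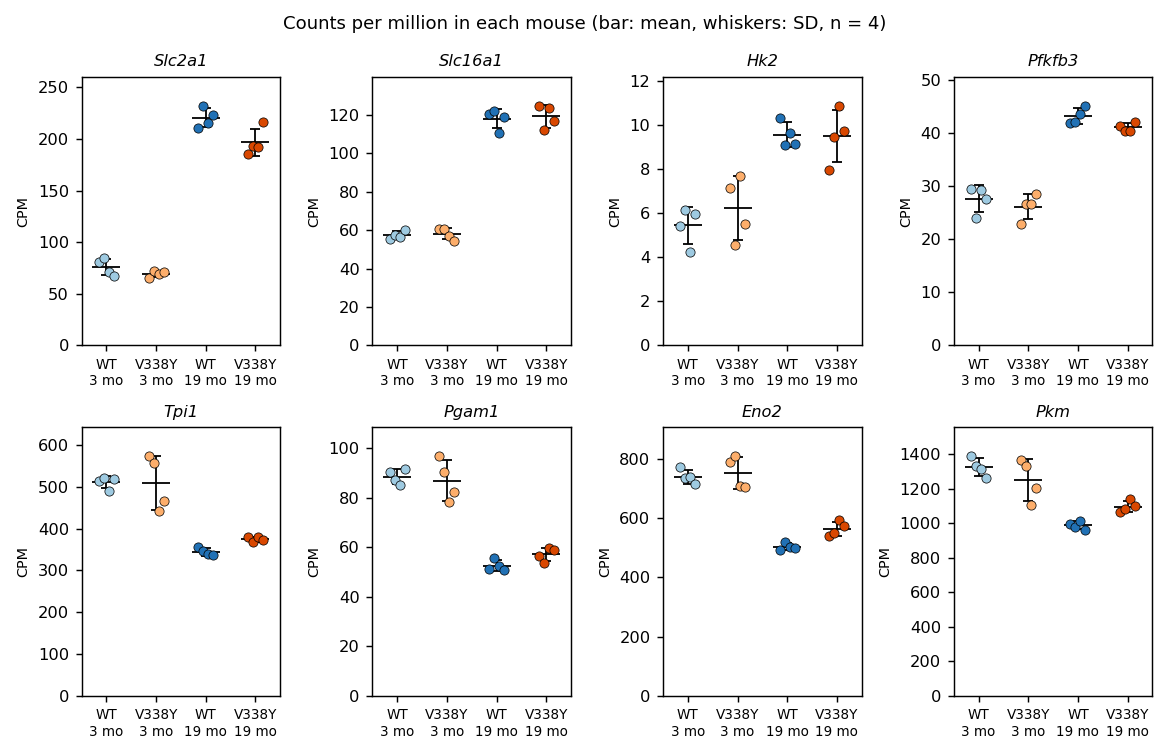
Normalised counts in CPM (y axis, from 0) in each mouse for 8 genes, in the 4 groups on the x axis; points are mice, bars are means and whiskers SD (n = 4). *Slc2a1*, *Slc16a1*, *Hk2* and *Pfkfb3* stand higher in all 19-month mice than in all 3-month mice of the same genotype. *Tpi1*, *Pgam1*, *Eno2* and *Pkm* stand lower, apart from an overlap of the V338Y groups for *Pkm*.

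Of the 5 glycogen members of the set, those that passed the test with age were higher. Further glycogen genes outside the set went both ways. *Pygb*, the brain glycogen phosphorylase that frees glucose 1-phosphate, was at 233, 218, 225 and 206 CPM in young and 285, 262, 274 and 268 CPM in old WT mice. In V338Y mice it was at 232, 214, 165 and 214 and 259.9, 252, 257 and 244 CPM. No groups overlapped, with log2 fold changes of 0.32 ± 0.044 and 0.29 ± 0.08 (edgeR adjusted p = 2.29e-07 and 0.01). The V338Y value missed the threshold without mice 17 and 18 together (0.0893). *Pygm*, the muscle-type phosphorylase that astrocytes also use, measured 50.2, 49.7, 48.7 and 43.1 and 48.9, 50.4, 49.1 and 44.8 CPM in WT mice (0.032 ± 0.063, edgeR adjusted p = 0.67). In V338Y mice it went from 42.1, 44.1, 41.3 and 44.9 to 52.4, 48.7, 55.2 and 52.3 CPM, without overlap (0.27 ± 0.059, edgeR adjusted p = 0.00254).

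*Gbe1*, the glycogen branching enzyme, rose in WT mice from 18.002, 17.9, 17.3 and 18.2 to 22.6, 22.8, 22.5 and 27.1 CPM (0.41 ± 0.082, edgeR adjusted p = 7.96e-05). Its V338Y values were 16.9, 16.9, 17.02 and 20.1 and 21.003, 21.2, 22.2 and 21.9 CPM (0.28 ± 0.077, edgeR adjusted p = 0.0102). In V338Y mice young mouse 16 approached the old ones without overlap. The synthesis side did not pass: glycogen synthase *Gys1* had log2 fold changes of -0.10 and -0.0017 (edgeR adjusted p = 0.297 and 0.991), and *Ugp2*, which makes UDP-glucose, -0.017 and 0.078 (edgeR adjusted p = 0.795 and 0.284).

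The enzymes that set fructose 2,6-bisphosphate, the activator of phosphofructokinase, rose for 2 of 3 members. *Pfkfb3*, the isoform with the strongest kinase activity, was at 29.5, 24.02, 29.4 and 27.6 CPM in young and 41.999, 42.1, 43.6 and 45.1 CPM in old WT mice. V338Y mice had 22.8, 26.6, 26.7 and 28.5 and 41.3, 40.4, 40.5 and 42.1 CPM. The groups were far apart, with log2 fold changes of 0.66 ± 0.071 and 0.64 ± 0.074 (edgeR adjusted p = 1.95e-09 and 1.80e-05). *Pfkfb4* rose by 0.24 and 0.26 (edgeR adjusted p = 0.016 and 0.0101); its WT call was lost without WT mouse 11 (0.0695) or 14 (0.0539). *Pfkfb2* passed in neither genotype (-0.021 and -0.11; edgeR adjusted p = 0.747 and 0.134).

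The pentose phosphate members went different ways. *Pgd*, 6-phosphogluconate dehydrogenase, which makes NADPH, rose in WT mice from 19.1, 16.4, 17.7 and 17.998 to 23.1, 24.7, 22.5 and 23.8 CPM and in V338Y mice from 20.3, 20.2, 18.99 and 19.7 to 26.5, 26.7, 23.9 and 25.1 CPM. Neither pair of groups overlapped (0.42 ± 0.081 and 0.36 ± 0.065; edgeR adjusted p = 3.55e-05 and 6.42e-04). *Taldo1*, transaldolase of the non-oxidative branch, fell by 20.5% in WT mice (edgeR adjusted p = 2.53e-06). In V338Y mice it fell by 9.35% (edgeR adjusted p = 0.0442), a call that DESeq2 (0.111) and the omission of any mouse except 15 (0.0704 to 0.175) ended. *G6pdx*, the entry enzyme, had -0.003 and 0.066 (edgeR adjusted p = 0.973 and 0.412), and transketolase *Tkt* 0.039 and 0.13 (edgeR adjusted p = 0.446 and 0.112). *G6pdx* is X-linked like *Pgk1*.

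The age changes of the genotypes, which share no mouse, ran side by side. Young and old groups did not overlap for 25 of 34 genes in WT (background 55.4%) and for 17 in V338Y mice (44.1%). Of the 34 genes, 8 rose and 11 fell in both, 6 were called in WT mice and not in V338Y mice, 1 (*Pygm*) the other way round, 8 in neither, and none in opposite directions; the difference itself passed the interaction test for none. Across genes, which are not independent replicates, Pearson's r of the log2 fold changes was 0.934 and Spearman's rho 0.977, and 30 of 34 had the same sign. The absolute change was larger in WT mice for 27 of 34. At a stricter adjusted p under 1e-5, WT mice had 6 higher and 12 lower (background 14.5% and 12.3%) and V338Y mice 2 higher, *Slc2a1* and *Slc16a1*, and none lower (4.16% and 0.739%). Standard errors were larger in the V338Y comparison, with a median of 0.063 against 0.046. Mouse 14, the young V338Y mouse with few cerebellum markers, lay on the young side of every old V338Y mouse for all 20 genes called there. Those calls were made with mouse 14 among the young mice, so this count is not an independent check. Mouse 14 lay within the range of the other 3 young V338Y mice for 19 of 34. With a covariate for the cerebellum markers, 12 genes were called in V338Y mice (4 higher and 8 lower, 11 of them among the 20) and 0 in WT mice, where the score and the age split the same mice. In V338Y mice only mouse 14 separated the score from the age, so the 12 calls rest on that mouse.

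The neuronal and the glial or vascular sister gene of 6 steps were set against each other as a log2 ratio of CPM within each mouse, which hardly depends on library scaling. With age the ratio moved toward the glial or vascular gene in 4 pairs. *Slc2a3*/*Slc2a1* was 1.17, 1.06, 1.31 and 1.36 in young and -0.66, -0.83, -0.67 and -0.78 in old WT mice, and 1.43, 1.24, 1.23 and 1.22 and -0.46, -0.57, -0.49 and -0.69 in V338Y mice. The sign turned in all 8 old mice, and the shift was -1.96 ± 0.08 (SE) and -1.83 ± 0.072. Per kilobase of the main transcript, *Slc2a1* made up 34.2% ± 2.14 (SD, n = 4) of the summed level of both transporters in young and 66.9% ± 1.28 in old WT mice. For *Slc16a7*/*Slc16a1* the shift was -0.78 ± 0.082 in WT and -0.99 ± 0.10 in V338Y mice.

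*Aldoa*/*Aldoc* fell from 0.37 ± 0.10 to -0.066 ± 0.041 in WT and from 0.41 ± 0.19 to 0.061 ± 0.04 in V338Y mice (SD, n = 4). *Eno2*/*Eno1* fell from 0.98 ± 0.036 to 0.65 ± 0.041 and from 1.07 ± 0.07 to 0.77 ± 0.059. In each of these 4 pairs the young and old mice did not overlap in either genotype. *Pygb*/*Pygm* rose in WT mice (0.29 ± 0.051) without overlap and was 0.03 ± 0.10 in V338Y mice (exact permutation p = 0.83). *Ldhb*/*Ldha* was -0.023 ± 0.042 and -0.069 ± 0.065 (exact permutation p = 0.66 and 0.34). Each ratio whose groups were apart had a two-sided exact permutation p of 0.0286, the smallest that 70 assignments of 4 against 4 mice can give, and 0.0571 after Benjamini-Hochberg adjustment over the 24 ratio tests, so none passed the adjusted threshold.

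**Figure D3:**
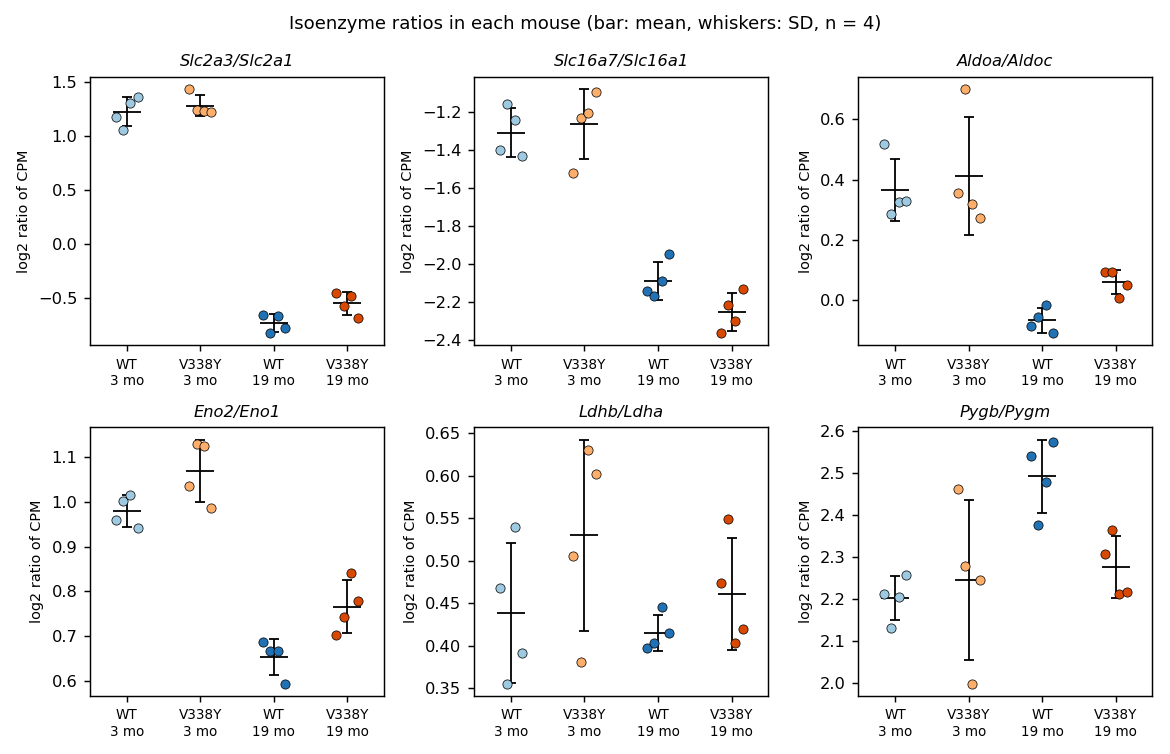
Log2 ratio of CPM of the neuronal gene to its glial or vascular sister (y axis; each panel has its own scale) in each mouse of the 4 groups, with means and SD (n = 4). In the upper row and for *Eno2*/*Eno1* all 19-month mice lie below all 3-month mice of the same genotype; *Ldhb*/*Ldha* overlaps throughout, and *Pygb*/*Pygm* stands higher in the old WT mice than in the young WT and the old V338Y mice.

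Between the genotypes at 3 months, none of the 34 genes passed the test. Their log2 fold changes (V338Y over WT) lay between -0.20 and 0.37, the smallest edgeR adjusted p was 0.926, and DESeq2 called none. At an unadjusted p under 0.05, 1 gene was lower and none higher (background 2.65% and 2.37%), which was *Pygm* (-0.14 ± 0.066, edgeR unadjusted p = 0.0471). For none of the 34 were the genotypes apart (background 3.23%). No isoenzyme ratio separated the genotypes. Standard errors had a median of 0.066 on the log2 scale.

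At 19 months, 2 enzymes of lower glycolysis were higher and 1 transporter was lower in V338Y mice. *Eno2* was at 493, 519, 502 and 498 CPM in WT and at 538, 548, 593 and 573 CPM in V338Y mice. Every V338Y mouse was above every WT mouse, and the log2 fold change was 0.16 ± 0.039 (edgeR adjusted p = 0.0145). *Pkm* was at 998, 981, 1016 and 961 CPM and 1065, 1083, 1139.8 and 1102 CPM, also apart, with 0.15 ± 0.037 (edgeR adjusted p = 0.0176). *Slc2a1*, at 211, 232, 215 and 224 CPM in WT and 185, 193, 192 and 216 CPM in V338Y mice, had a log2 fold change of -0.16 ± 0.044 (edgeR adjusted p = 0.036), and its groups overlapped through V338Y mouse 20. In percent the differences were 11.8%, 10.9% and 10.8%. All 3 calls were lost without V338Y mouse 19, the mouse with the highest muscle markers (edgeR adjusted p from 0.0934 to 0.124), and in one fit of all 16 mice (0.228 to 0.372). *Pkm* was also lost without WT mouse 13 (0.067) or 15 (0.0703), and *Slc2a1* without WT mouse 13, 14 or 15 or V338Y mouse 17 or 18 (0.0652 to 0.165) and with DESeq2 (0.0606), which called 3 genes, all higher, while scaling by library size alone gave 6, all higher.

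Most other glycolytic genes had small positive estimates that missed the threshold. Of the 34 genes, 23 had a log2 fold change above 0 at 19 months (background 49.7%), with a median of 0.040 against -0.001 over all genes. At an unadjusted p under 0.05, 11 were higher and 4 lower (background 7.66% and 8.54%), and for 10 higher and 2 lower the groups did not overlap (4.49% and 4.83%). The 13 glycolytic members had 12 of 13 estimates above 0, 9 of them at an unadjusted p under 0.05. *Tpi1* was 0.12 ± 0.037 (edgeR adjusted p = 0.0671), *Pfkl* 0.12 ± 0.04 (edgeR adjusted p = 0.0869), *Pfkm* 0.12 ± 0.039 (edgeR adjusted p = 0.107), *Hk1* 0.10 ± 0.038 (edgeR adjusted p = 0.195) and *Pgk1* 0.10 ± 0.041 (edgeR adjusted p = 0.202). *Aldoa*, *Gapdh* and *Taldo1* were also higher without overlap, with estimates of 0.081, 0.11 and 0.091 (edgeR adjusted p = 0.253, 0.138 and 0.332). *Hk3* had the most negative estimate, -0.62 ± 0.18 (edgeR adjusted p = 0.054), with 4.27, 4.22, 2.82 and 4.23 CPM in WT and 2.63, 2.399, 2.299 and 2.88 CPM in V338Y mice. *Pygb* (-0.11) and *Gbe1* (-0.12) were lower without overlap (edgeR adjusted p = 0.126 and 0.441). In the same libraries, 2 of 10 neuron markers were higher and 2 of 8 astrocyte and 2 of 9 microglia markers lower by the test (background 1.19% higher and 1.92% lower). Of the pituitary markers 2 of 4 were lower (sum 0.399-fold), of the meningeal fibroblast markers 2 of 6 lower and 1 higher, and of the 5 skeletal muscle markers none passed but 4 were higher without overlap (sum 4.88-fold). Their part in these values was not tested.

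**Figure D4:**
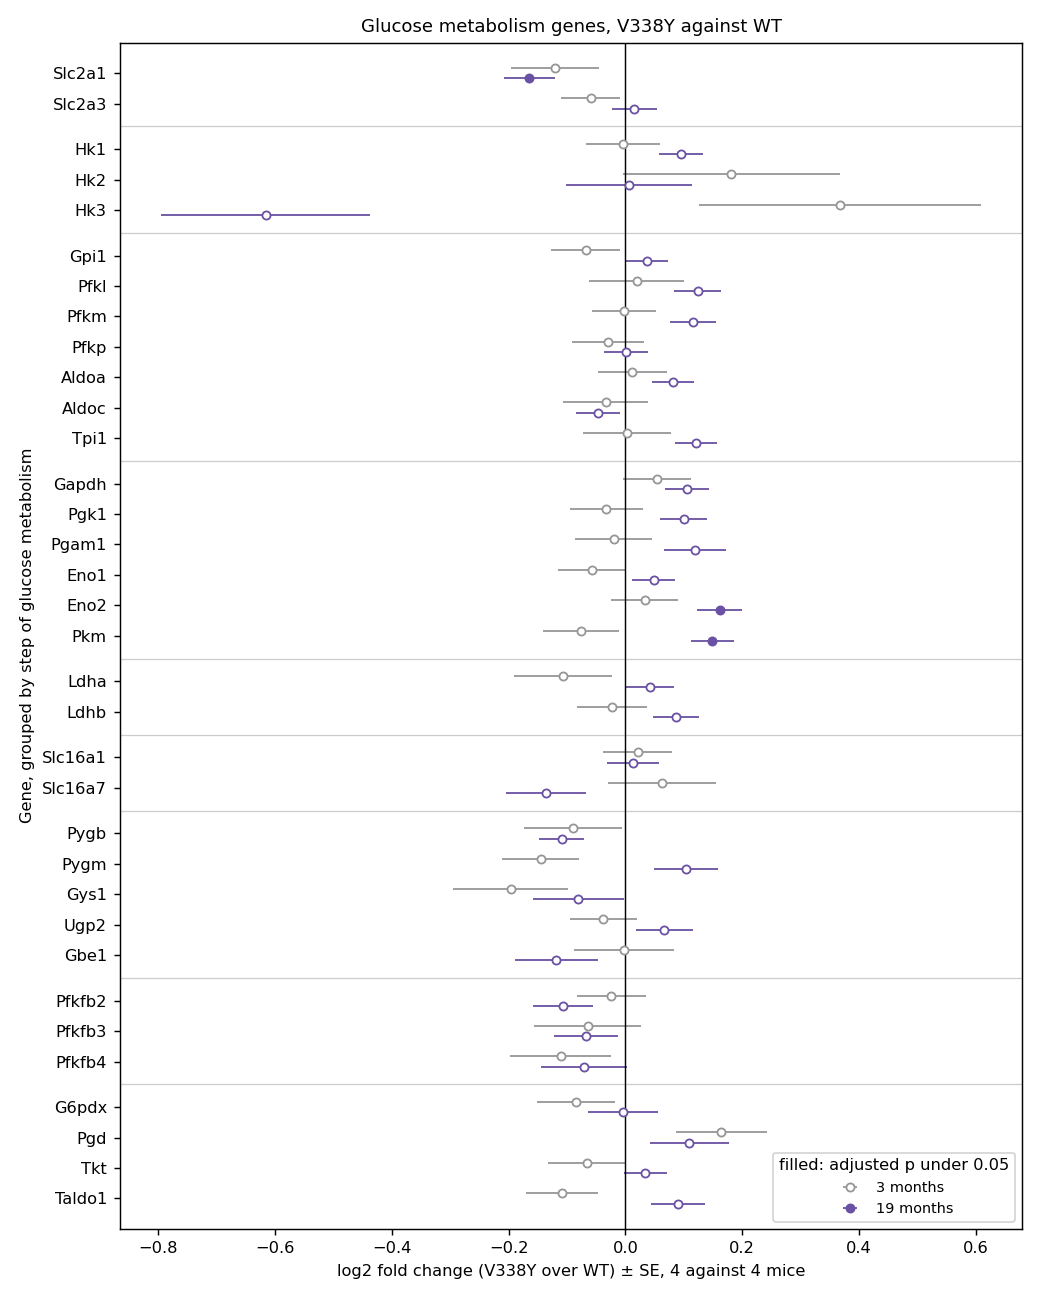
Log2 fold changes of the 34 genes between genotypes (V338Y over WT; x axis) with standard errors, 4 against 4 mice, at 3 months (grey) and 19 months (purple). Filled points had an edgeR adjusted p under 0.05: *Eno2* and *Pkm* to the right of 0 and *Slc2a1* to the left, all at 19 months. No point is filled at 3 months.

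For 3 pairs the isoenzyme ratios of the old genotypes did not overlap, though none passed the adjusted threshold. *Aldoa*/*Aldoc* was -0.085, -0.057, -0.014 and -0.11 in WT and 0.093, 0.094, 0.0092 and 0.05 in V338Y mice, a difference of 0.13 ± 0.029. *Eno2*/*Eno1* differed by 0.11 ± 0.036 and *Pygb*/*Pygm* by -0.22 ± 0.057. The groups were apart for each (exact permutation p = 0.0286, adjusted 0.0571 over the 24 ratio tests). *Eno1* has a near-identical copy, *Eno1b*, with which reads can be exchanged. *Eno1b* was at 0 in all mice except 4.29 to 4.67 CPM in the 4 old V338Y mice and 0.0504 CPM in young V338Y mouse 14, and with its counts added to *Eno1* the *Eno2*/*Eno1* groups overlapped. The other copies looked up were at most at 0.866 CPM in any mouse.

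Whether an age change differed between the genotypes was tested as an interaction, and no member passed. The smallest edgeR adjusted p of the interaction was 0.25 (*Hk3*, -0.98 ± 0.30), DESeq2 called none, and standard errors had a median of 0.082. Of the 34 estimates 25 were above 0 (background 50.6%), with a median of 0.096 against 0.002 over all genes. At an unadjusted p under 0.05, 3 were above 0 and 1 below (background 5.33% and 4.91%). Those above were *Pkm* (0.23 ± 0.08, edgeR adjusted p = 0.335), *Pygm* (0.26 ± 0.086, 0.317) and *Taldo1* (0.21 ± 0.075, 0.37), and *Hk3* was the one below.

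Among 59 further genes of these pathways, 50 passed the filter. In WT mice 20 rose and 16 fell with age (background 31.4% and 31.5% of all genes tested), and in V338Y mice 15 rose and 12 fell (23.1% and 25.7%). None passed between genotypes or in the interaction by edgeR. At an unadjusted p under 0.05, 4 were higher and 1 lower at 3 months (background 2.37% and 2.65%), 3 higher and 1 lower at 19 months (7.66% and 8.54%), and 4 above and 4 below 0 in the interaction (5.33% and 4.91%). The 3 largest called rises in WT mice were *Slc2a10*, a glucose transporter of the vessel wall (1.16 ± 0.136 to 3.37 ± 0.18 CPM, 1.52 ± 0.23, edgeR adjusted p = 1.06e-06), *Txnip*, which restrains glucose uptake (21.9 ± 1.602 to 58.9 ± 2.53 CPM, 1.44 ± 0.068, edgeR adjusted p = 8.74e-18), and *Slc16a3*, the lactate exporter MCT4 (1.14 ± 0.19, edgeR adjusted p = 5.50e-06). In V338Y mice their log2 fold changes were 0.89, 1.27 and 0.70. The 3 largest falls were *Pgam2*, the muscle mutase (-0.89 ± 0.28, edgeR adjusted p = 0.00695), *Tigar*, which degrades fructose 2,6-bisphosphate (-0.64 ± 0.076, edgeR adjusted p = 1.23e-08), and *Gpd1* of the glycerol phosphate shuttle (-0.58 ± 0.059, edgeR adjusted p = 5.40e-10). Their V338Y values were -0.63, -0.42 and -0.61, and that of *Pgam2* did not pass (edgeR adjusted p = 0.0675). *Pgam2* was scarce, at 1.46 to 2.84 CPM in young and 0.676 to 1.74 CPM in old WT mice, and these groups overlapped.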

How the data were processed

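The table covers brain RNA of 16 mice, 4 in each of 4 groups set by genotype and age as labelled, and replicates are separate animals. Reads came from a stranded single-end library kit. The deposited values are estimated counts per gene that the authors made with RSEM by the paper's methods (Ensembl annotation), while the submitters' processing notes name bcl2fastq 1.8.4, STAR 2.4.2a, featureCounts and GRCm38, so the counter is uncertain. All values were whole numbers, and each of the 1495 values of at least 10000 ended in 0, which limits those to 4 significant digits. They were used as deposited. The tissue is brain by its label and cortex by the methods, while the extraction text speaks of muscle.

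Gene identifiers were matched to symbols, positions and transcript lengths in GENCODE M21 (GRCm38), and promoter windows came from RefSeq (GRCm38.p6). The 34 genes, the 59 further pathway genes and the marker lists were chosen with earlier results of these data known. For each comparison the 8 mice were fitted with edgeR 4.0.16 (R 4.3.3) in a robust quasi-likelihood model after TMM scaling, keeping genes with 10 or more counts in 2 of 4 mice in either group. The interaction was fitted in all 16 mice. The SE of a log2 fold change was its absolute value divided by the square root of the quasi-likelihood F statistic. Adjustment ran over all genes tested, with calls at an adjusted p under 0.05. CPM values and the overlap of groups used TMM factors (0.954 to 1.045) over all 16 libraries, and log2 ratios a prior count of 2. Levels per kb were divided by the length of the main transcript. Ratios were tested by a two-sided exact permutation test in scipy 1.17.1. Every gene of the set is named, and values in every mouse are given for isoenzyme pairs, for genes called between genotypes and for the largest WT age change of each role; for *Hk2* and others, means or folds are given. Of the further genes, the 3 largest called rises and falls in WT mice are named. Replicate libraries differed by more than sampling noise (chi-square per degree of freedom from 2.02 to 31.8 over 12755 genes). Depth limits *Hk3* most, with 11 counts in its lowest library, and 32 of 34 genes had at least 100 counts in every mouse. Alternatives were DESeq2 1.42.0, other scalings and filters, a likelihood-ratio test, one fit of all mice, a cerebellum marker covariate, added gene copies, removal of GC and length trends, thinned counts, a stricter threshold and the omission of mice.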

Additional observations from a re-analysis of the deposited data

Results flagged for a closer look

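In 9 of 160 groups of 4 mice (5.63%), 1 mouse stood apart from the other 3 by Dixon's 95% criterion, which chance alone passes in about 5% of groups. These were 8 of the 136 groups of single genes and 1 of the 24 groups of ratios, and 3 of them came from young V338Y mouse 13. Old WT mouse 14 had *Hk3* at 2.82 CPM, below the 4.22 to 4.27 CPM of the others. Young V338Y mouse 13 had *Pfkm* at 429.8 CPM (others 389 to 392), *G6pdx* at 34.3 CPM (others 29.6 to 30.4) and a *Slc2a3*/*Slc2a1* log2 ratio of 1.43 (others 1.22 to 1.24). *Gbe1* was high at 27.1 CPM in old WT mouse 15 (others 22.5 to 22.8) and at 20.09 CPM in young V338Y mouse 16 (others 16.9 to 17.02). Young WT mouse 12 had *Pgk1* at 168 CPM (others 159 to 160.03), young V338Y mouse 15 *Gys1* at 21.8 CPM (others 16.98 to 17.8), and old V338Y mouse 17 *Pfkfb4* at 18.8 CPM (others 20.1 to 20.2).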

How the results depend on the processing

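Of 34 genes, 25 changed with age in WT mice and 23 to 26 did with 1 mouse left out. With DESeq2, RLE factors, no filter, added copies, a likelihood-ratio test or all 16 mice the count was again 25, and with library size as the sole scaling it was 27 (8 higher, 19 lower, against 10 and 15). The cerebellum covariate left 0 calls in WT mice, and there *Pygb* (-0.41), *Pfkfb3* (-0.054), *Pgd* (-0.058) and *Taldo1* (0.46) had the opposite sign; the markers and the ages split the same WT mice. In V338Y mice 20 changed, 16 to 23 with 1 mouse left out, 14 without mice 17 and 18 together (chosen after seeing the data), 12 with the cerebellum covariate and 2 at an adjusted p under 1e-5. With that covariate only young mouse 14 separated the markers from the age in V338Y mice. Between genotypes at 19 months 3 differed, 0 to 4 with 1 mouse left out (0 without V338Y mouse 19, 1 without WT mouse 13 or 15). The count there was 6 with library size alone (6 higher, 0 lower), 1 after thinning to the smallest library (fewer counts), and 0 with the cerebellum covariate, the likelihood-ratio test, one fit of all 16 mice or an adjusted p under 1e-5; the cause was not tested. At 3 months and in the interaction each alternative run gave 0. Ratio pairs apart at 3 months numbered 0 to 1 with 1 mouse left out (1 without V338Y mouse 16) and at 19 months 3 to 5 (5 without V338Y mouse 20), 2 with *Eno1b* added. Over 48 calls of single genes and all alternatives, 850 outcomes kept the call, 129 lost it with the same direction and 4 had the opposite sign. These outcomes include the threshold of 1e-5, which was applied to the main fit without a refit. It accounts for 7 losses in WT mice with age, 18 in V338Y mice with age and 3 between genotypes at 19 months. No paired analysis was possible because the groups compared share at most 1 mouse number.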
